A study of Mus musculus with 12 samples.

Results

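The interferon-stimulated genes described here are 42 genes of mouse kidney that interferons are known to switch on, taken from the deposited expression table by gene name. All 42 were found, each as 1 row among 33188 genes, and all 42 were among the 19772 genes with enough counts to be tested. The list was applied by gene name, with no measured value in the rule, and it was drawn up with earlier results of these data known. RNA was sequenced from kidneys of wild-type mice in 12 strand-specific libraries, 4 in each of 3 groups. XZSW kidneys came from the hyperuricemia model given Xin-Zi-Sheng-Wan decoction, a traditional Chinese herbal preparation. HUA kidneys came from the untreated model, in which potassium oxonate, an inhibitor of the urate-degrading enzyme uricase, was combined with hypoxanthine, a purine that is broken down to urate. CTL kidneys were the controls. Dose, treatment time, age and sex were not given in the labels used here. Whether the 4 libraries of a group are 4 mice is not stated in any label. The p-values therefore reflect the scatter among these libraries alone, and that scatter may be technical. Libraries are called XZSW1 to XZSW4, HUA1 to HUA4 and CTL1 to CTL4 by the number in their titles.

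Type I interferons act through the receptor chains IFNAR1 and IFNAR2, and interferon gamma through IFNGR1 and IFNGR2. Janus kinases bound to these receptors phosphorylate STAT proteins. A complex that holds STAT2 and IRF9 binds the interferon-stimulated response element (ISRE), and STAT dimers bind the gamma-activated site (GAS). The genes switched on in this way encode sensors of foreign RNA, inhibitors of viral translation and replication, the ubiquitin-like modifier ISG15, and large GTPases that attack membranes around intracellular microbes. In kidney such genes are known to be active in tubule cells, endothelium and leukocytes.

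The DNA upstream of the members was examined first, for the ISRE and GAS named above. RefSeq start windows (assembly GRCm38.p6, 250 bases before to 50 bases after an annotated start) were matched for 29 of the 42 members. The ISRE core was searched as GAAANNGAAA on both strands, and the GAS core as TTCNNNGAA, which reads the same on both strands; both motifs may overlap. An ISRE core was present in 20 of the 29 members, a GAS core in 9, both in 6 and neither in 6. Over all 27025 genes with a window, 3.99% held an ISRE core and 9.55% a GAS core. The 200 bases before the start are shown for 7 members whose levels are given in full below, each 5′ to 3′ on the coding strand, with every core in capitals. These 7 were taken to show ISRE cores alone, a GAS core alone and both together.
Isg15, chr4:156200819-156201018, minus strand: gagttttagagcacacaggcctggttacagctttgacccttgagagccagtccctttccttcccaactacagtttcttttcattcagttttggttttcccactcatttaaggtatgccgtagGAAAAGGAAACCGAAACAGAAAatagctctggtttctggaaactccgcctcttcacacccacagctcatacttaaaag
Ifit3, chr19:34583329-34583528, plus strand: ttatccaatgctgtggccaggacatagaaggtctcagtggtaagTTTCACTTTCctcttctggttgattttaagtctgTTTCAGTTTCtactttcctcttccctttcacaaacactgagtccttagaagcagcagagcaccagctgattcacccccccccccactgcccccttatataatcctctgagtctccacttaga
Ifit3b, chr19:34607757-34607956, plus strand: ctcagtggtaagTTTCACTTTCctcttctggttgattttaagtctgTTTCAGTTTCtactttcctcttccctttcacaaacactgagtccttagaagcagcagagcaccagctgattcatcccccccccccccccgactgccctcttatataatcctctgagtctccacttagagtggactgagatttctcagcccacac
Gbp3, chr3:142559844-142560043, plus strand: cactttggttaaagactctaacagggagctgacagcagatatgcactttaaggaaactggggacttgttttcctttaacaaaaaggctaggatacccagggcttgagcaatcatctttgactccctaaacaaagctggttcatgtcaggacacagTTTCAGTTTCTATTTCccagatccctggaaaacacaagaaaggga
Gbp2, chr3:142620463-142620662, plus strand: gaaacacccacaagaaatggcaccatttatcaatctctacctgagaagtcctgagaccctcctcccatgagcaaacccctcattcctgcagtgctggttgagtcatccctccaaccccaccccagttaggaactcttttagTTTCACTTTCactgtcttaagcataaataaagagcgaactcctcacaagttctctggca
Irf1, chr11:53769814-53770013, plus strand: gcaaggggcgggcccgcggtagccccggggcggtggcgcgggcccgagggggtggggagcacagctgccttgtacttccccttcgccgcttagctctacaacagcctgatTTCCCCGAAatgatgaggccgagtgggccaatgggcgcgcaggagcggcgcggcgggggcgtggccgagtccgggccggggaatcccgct
Bst2, chr8:71537473-71537672, minus strand: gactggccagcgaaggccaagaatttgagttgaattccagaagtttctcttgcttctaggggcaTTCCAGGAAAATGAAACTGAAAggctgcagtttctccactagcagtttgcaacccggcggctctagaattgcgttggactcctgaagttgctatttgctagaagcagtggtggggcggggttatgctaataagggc

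Positions are counted from the start, with -1 as the last base before it. Isg15 held 3 overlapping ISRE cores that began at -78, -72 and -66. Gbp3 held 2 that overlapped, beginning at -45 and -39, and Gbp2 held 1 at -59. In Ifit3 and Ifit3b, which are close copies of each other, the same pair of cores stood at -156 and -122 in Ifit3 and at -188 and -154 in Ifit3b. Irf1 had no ISRE core in this window and 1 GAS core at -90. Bst2 had a GAS core at -136 that ran into a pair of ISRE cores at -130 and -124. A match is a description of the letters, not evidence of binding, and a window without one says nothing about the factor.

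**Figure D1:**
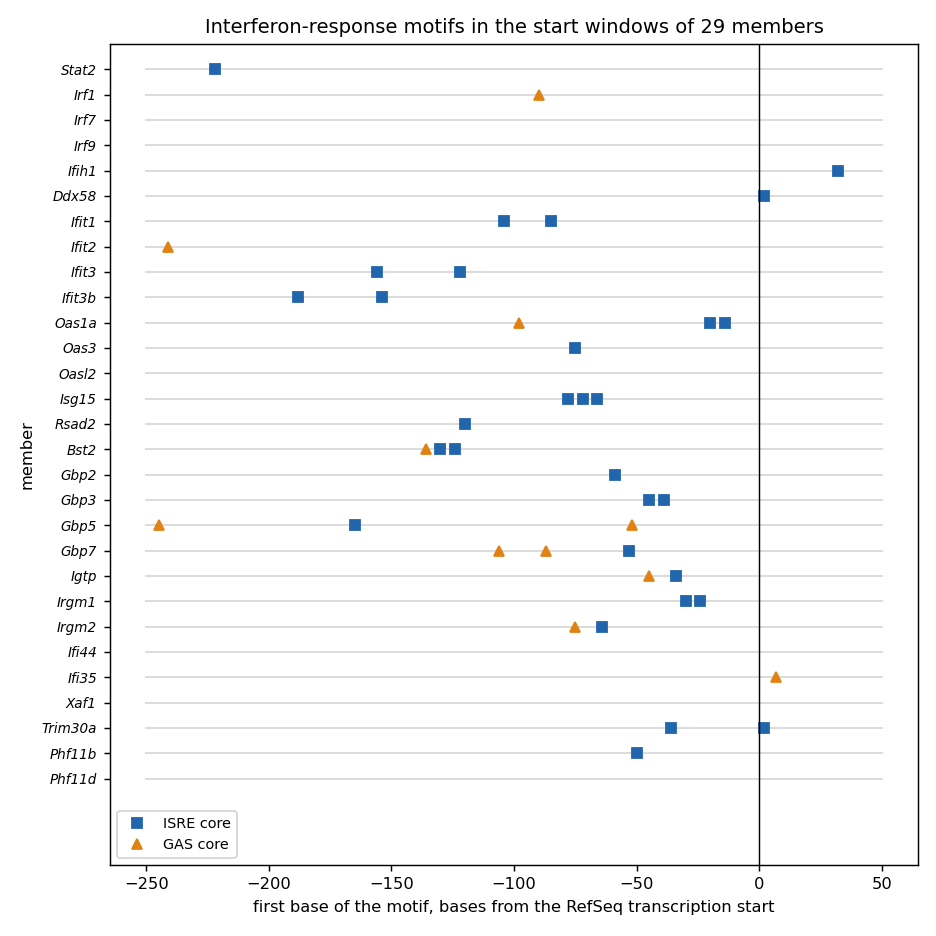
Position of each ISRE core (square) and GAS core (triangle) in the start windows of 29 members, in bases from the RefSeq start at 0, with each window drawn as a grey line and members with several windows merged on 1 line. Most marks lie within the 200 bases before the start, and 6 members carry neither core.

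Levels are given as scaled FPKM, the deposited FPKM (fragments per kilobase of transcript, corrected for sequencing depth) multiplied by 1 factor per library so that levels follow the same scaling (TMM) as the test. Changes are log2 ratios with standard errors from edgeR's quasi-likelihood test on the deposited counts, fitted over all 12 libraries. A gene is said to have risen or fallen only where its p, adjusted by Benjamini-Hochberg over 19772 tested genes, was under 0.05. The table's columns carry the letters C, N and M, and sample descriptions tie N to HUA and M to XZSW; no other label checks this, and if the letters were exchanged the HUA and XZSW values would be too.

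Some facts of the libraries bear on every comparison. Totals were 51.6 to 74.3 M counts. In 5 libraries (XZSW3, XZSW4, HUA2, HUA3 and HUA4) GC-rich genes read higher against the CTL mean, by 0.240 to 0.344 log2 units per 10% GC, while the other 7 libraries had slopes of -0.0468 to 0.0933. Libraries also differed in their slope on transcript length, which was 0.265, 0.187 and 0.141 log2 units per doubling in HUA1, XZSW1 and XZSW2, against -0.0497 to 0.0942 in the other 9. All 10 kidney markers (such as Lrp2, Umod and Nphs1) were detected in all 12 libraries, and some moved with the groups. In HUA against CTL 3 fell (Slc34a1, Lrp2 and Cubn, all of the proximal tubule) and 1 rose, in XZSW against HUA 4 rose, and in XZSW against CTL 2 rose. Their summed level was 1862 to 3121 in XZSW, 1020 to 2123 in HUA and 2293 to 2541 in CTL. Of 10 endothelial markers 3 rose in XZSW against HUA and 1 fell in HUA against CTL, with sums of 48.0 to 90.0 in XZSW, 28.6 to 73.8 in HUA and 46.2 to 67.7 in CTL. Macrophage markers moved with the groups, as 11 of 15 rose and Mertk fell when HUA was set against CTL. Of the same 15 markers, 3 fell in XZSW against HUA and 5 rose in XZSW against CTL. The summed level of the 15, in scaled FPKM, was 55.4, 59.6, 124 and 131 in XZSW1 to XZSW4, 163, 181, 191 and 59.2 in HUA1 to HUA4, and 39.4, 48.3, 38.2 and 63.1 in CTL1 to CTL4. Within XZSW the library with the lowest sum, XZSW1, was the highest library for 38 of the 42 members. Within HUA the sum was lowest in HUA4 and most members were lowest in HUA1, while within CTL both the sums and the members' median were lower in CTL1 and CTL3 than in CTL2 and CTL4. Cd163 and Msr1 were at 0 counts in 1 CTL library each. Of 7 plasmacytoid dendritic cell markers 2 rose (Bst2, itself a member, and Pacsin1) and 1 fell (Klk1, which kidney tubules also express) in HUA against CTL, and in XZSW against HUA Klk1 rose and Bst2 fell. Siglech, which defines these cells, was at 0 to 0.222. The summed T and NK cell markers were at 2.84 to 10.3 in XZSW, 1.03 to 3.70 in HUA and 2.45 to 5.08 in CTL, and the neutrophil markers at 0.951 to 4.25 in XZSW, 1.39 to 16.6 in HUA and 0.569 to 1.06 in CTL. B and plasma cell markers summed to 21.2 to 45.9 in XZSW, 5.65 to 19.5 in HUA and 20.5 to 52.5 in CTL. This sum was lower in every HUA library than in any XZSW or CTL library. Of the 6 such markers tested, HUA against CTL gave 1 rise and 1 fall. For XZSW against HUA there was 1 rise and no fall. For the marker counts above, the shares of all tested genes were 14.9% rising and 12.8% falling in HUA against CTL. They were 7.09% and 8.34% in XZSW against HUA, and 2.72% and 2.27% in XZSW against CTL. The part of the cell types marked here in the members' changes was not tested. In whole-tissue RNA, more cells of a kind and more RNA per cell cannot be told apart.

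In HUA against CTL kidneys the interferon-stimulated genes were higher nearly throughout. Of the 42 members 21 rose and 0 fell, where 14.9% of all tested genes rose and 12.8% fell. At an unadjusted p under 0.05 29 members were higher in HUA. DESeq2 called 0 falls among the members, where 14.9% of all tested genes fell. Both limma settings, on FPKM without TMM scaling, also called 0, where 7.15% to 7.48% of all tested genes fell. The log2 change was positive for 41 members, with a median of 1.25 against 0.06 over all tested genes, and a range of -0.05 for Rsad2 to 2.69 for Isg15. All 4 HUA libraries lay above all 4 CTL libraries for 13 members, against 15.1% of all tested genes. The rises covered 4 of 4 signal transducers and transcription factors, 4 of 4 IFIT genes, both ISG15 system genes and 4 of 7 guanylate-binding proteins, but 0 of 4 immunity-related GTPases. With library totals in place of TMM 33 members rose (29.2% of all tested genes rose and 6.68% fell), and 12 did when the GC split was added to the model (12.8% and 11.1% of all tested genes). Among the 7 libraries of low GC slope, where HUA1 alone stood for HUA and was assumed to vary like the rest, 7 rose with a median of 0.30, where 10.5% of all tested genes rose and 9.98% fell.

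For 28 of the 42 members the XZSW mean lay between the means of the other groups. Against HUA kidneys 2 members rose (Gbp4 and Gbp9) and 3 fell (Irf1, Bst2 and Gbp3), where 7.09% of all tested genes rose and 8.34% fell. Both counts were near the share of all genes. The median log2 change was -0.38, against 0.01 over all tested genes, and 14 of the 42 members had a positive one. The libraries of XZSW and HUA were apart for 2 members upward and 2 downward, against 8.96% and 9.12% of all tested genes. Against CTL kidneys 8 members rose and 0 fell, where 2.72% of all tested genes rose and 2.27% fell. At an unadjusted p under 0.05 26 members were higher in XZSW. DESeq2 called 0 falls among the members, where 5.10% of all tested genes fell. Both limma settings, on FPKM without TMM scaling, also called 0. Only 0.951% to 1.01% of all tested genes fell there, so that count says little about the members. The log2 change was positive for all 42, with a median of 0.93 against 0.04 over all tested genes. All XZSW libraries lay above all CTL libraries for 14 members, against 10.4% of all tested genes. The XZSW mean was the highest for 13 other members that had CTL lowest, and for Rsad2, which had HUA lowest. With library totals 1 member rose and 6 fell against HUA, where 4.23% of all tested genes rose and 13.7% fell. Without HUA1 1 member rose and 10 fell against HUA, where 8.35% of all tested genes rose and 10.5% fell. Against CTL 0 members rose without CTL3, 1 without CTL1, 2 without XZSW1, 3 without CTL2, 4 without CTL4 or without XZSW3, and 5 without XZSW4, and in these fits 0.405% to 1.55% of all tested genes rose. XZSW and HUA were both set against the same CTL libraries, and the members' changes in the comparisons are therefore given side by side only.

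**Figure D2:**
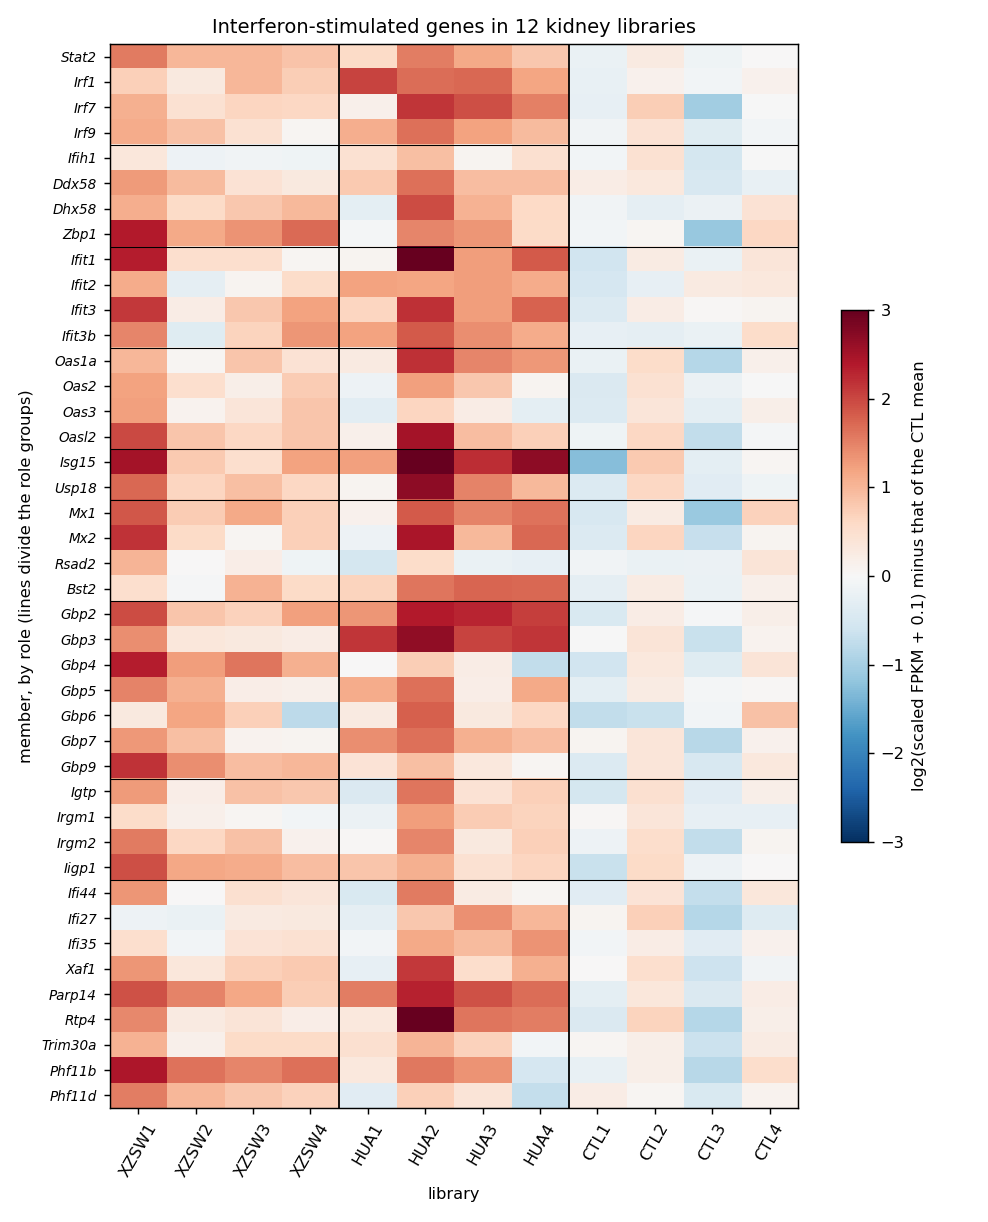
Level of the 42 members in each of 12 libraries, as log2(scaled FPKM + 0.1) minus that of the CTL mean (colour, red higher, blue lower); rows are members ordered by role, columns are XZSW, HUA and CTL libraries. HUA2 and XZSW1 are the reddest columns, and HUA1 is less red than the other HUA libraries over most rows.

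The signal transducers and transcription factors stand first in the pathway, and 4 of 4 rose in HUA against CTL, 1 fell in XZSW against HUA and 2 rose in XZSW against CTL. Irf1, a transcription factor known to be induced by interferon gamma, had levels of 3.52, 2.61, 4.32 and 3.56 in XZSW1 to XZSW4, 8.85, 6.97, 7.17 and 4.94 in HUA1 to HUA4, and 1.81, 2.32, 1.99 and 2.32 in CTL1 to CTL4. The 3 groups did not overlap, with HUA highest and CTL lowest. In HUA against CTL its log2 change was 1.73 ± 0.20 (SE, edgeR adjusted p = 9.77e-05). It fell in XZSW against HUA, with a log2 change of -0.99 ± 0.19 (SE, edgeR adjusted p = 0.00593), and it rose in XZSW against CTL by 0.73 ± 0.19 (SE, edgeR adjusted p = 0.048) on the log2 scale. The last of these calls was lost when any of XZSW1, XZSW3, XZSW4, HUA2 or CTL1 to CTL4 was left out. HUA1, the only HUA library of low GC slope, had the highest Irf1 level of all 12 libraries.

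Stat2, a subunit of the ISRE-binding complex, had levels of 5.84, 3.92, 3.97 and 3.58 in XZSW1 to XZSW4, 2.92, 5.73, 4.35 and 3.46 in HUA1 to HUA4, and 1.67, 2.34, 1.77 and 1.94 in CTL1 to CTL4. Every XZSW and every HUA library lay above every CTL library, and the XZSW and HUA libraries overlapped. Its log2 change was 1.16 ± 0.22 (SE, edgeR adjusted p = 0.0159) in XZSW against CTL, and it was 1.09 ± 0.22 (SE, edgeR adjusted p = 0.00287) in HUA against CTL. The call in XZSW against CTL was lost without CTL1 or CTL3. Between XZSW and HUA the change was 0.07 ± 0.22 (SE, edgeR adjusted p = 0.863). Irf9, the DNA-binding partner in that complex, had levels of 5.55, 4.63, 3.47 and 2.62 in XZSW1 to XZSW4, 5.38, 7.98, 5.85 and 4.87 in HUA1 to HUA4, and 2.33, 3.39, 1.91 and 2.34 in CTL1 to CTL4. HUA libraries all lay above CTL libraries, while XZSW libraries overlapped both. Irf9 rose in HUA against CTL, with a log2 change of 1.27 ± 0.25 (SE, edgeR adjusted p = 0.00237), and in XZSW against HUA the change was -0.56 ± 0.24 (SE, edgeR adjusted p = 0.139). Irf7, which amplifies type I interferon production, also rose in HUA against CTL, with a log2 change of 1.65 ± 0.41 (SE, edgeR adjusted p = 0.00982). Its HUA1 level of 2.37 lay below the CTL2 level of 3.61, and the other HUA libraries were at 6.28 to 9.77.

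**Figure D3:**
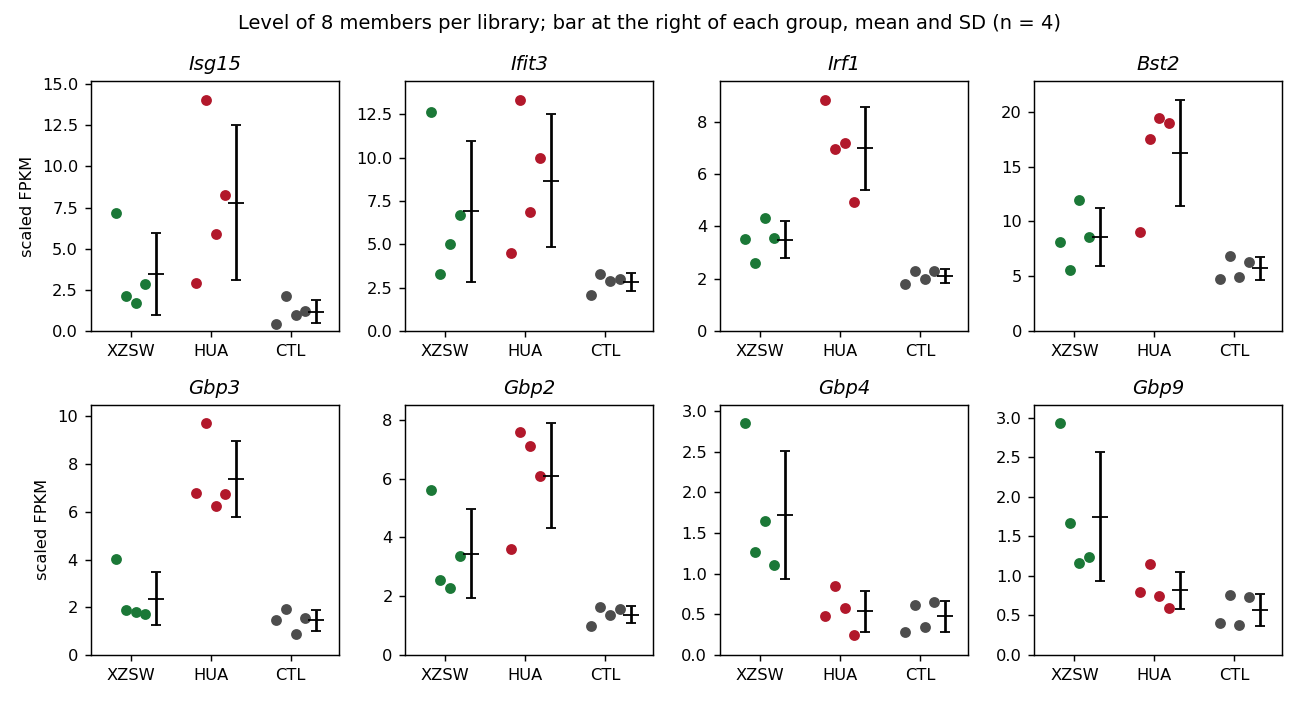
Scaled FPKM of 8 members in every library (points, in the order of library number), with the mean and SD of 4 libraries at the right of each group. HUA points stand above the others for Irf1, Bst2 (except HUA1), Gbp3 and Gbp2 (except HUA1), while XZSW points stand above the others for Gbp4 and Gbp9.

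Among the cytosolic sensors of foreign nucleic acid 1 of 4 rose in HUA against CTL and 0 of 4 were called in the other comparisons. Ddx58 encodes RIG-I, which detects viral RNA ends, and had levels of 6.84, 5.43, 3.77 and 3.41 in XZSW1 to XZSW4, 4.87, 8.95, 5.35 and 5.4 in HUA1 to HUA4, and 3.28, 3.51, 1.98 and 2.36 in CTL1 to CTL4. All HUA libraries lay above all CTL libraries, HUA2 and XZSW1 were the highest of their groups, and XZSW4 lay within the CTL range. In HUA against CTL its log2 change was 1.14 ± 0.27 (SE, edgeR adjusted p = 0.00672), and in XZSW against HUA it was -0.34 ± 0.26 (SE, edgeR adjusted p = 0.433). Ifih1 encodes MDA5, the sensor of long double-stranded RNA, and had levels of 1.83, 1.27, 1.32 and 1.28 in XZSW1 to XZSW4, 1.98, 2.75, 1.51 and 2.02 in HUA1 to HUA4, and 1.35, 1.97, 0.958 and 1.41 in CTL1 to CTL4. The 3 groups overlapped, with HUA3 at 1.51 below CTL2 at 1.97. The change of Ifih1 in HUA against CTL was 0.54 ± 0.23 (SE, edgeR adjusted p = 0.107). Dhx58 and Zbp1, the remaining sensors, had low levels of 0.0118 to 1.43, and both lay higher in every XZSW library than in any CTL library without passing the test.

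The IFIT genes encode proteins that bind viral RNA and block its translation, and 4 of 4 rose in HUA against CTL. With the GC split added to the model Ifit1, Ifit3 and Ifit3b were no longer called. All 4 lie on chromosome 19, from 34550694 at the start of Ifit2 to 34650009 at the end of Ifit1 (GRCm38). Ifit3 had levels of 12.6, 3.31, 5.02 and 6.67 in XZSW1 to XZSW4, 4.5, 13.3, 6.88 and 9.94 in HUA1 to HUA4, and 2.11, 3.29, 2.9 and 2.99 in CTL1 to CTL4. HUA and XZSW libraries all lay above the CTL libraries, XZSW2 at 3.31 only just above CTL2 at 3.29, and HUA and XZSW overlapped. Ifit3 rose in HUA against CTL, with a log2 change of 1.62 ± 0.40 (SE, edgeR adjusted p = 0.00853), and in XZSW against HUA it was -0.33 ± 0.38 (SE, edgeR adjusted p = 0.625). Ifit3b, its neighbour and close copy, had levels of 7.57, 2.03, 4.32 and 6.82 in XZSW1 to XZSW4, 6.23, 9.76, 7.11 and 5.82 in HUA1 to HUA4, and 2.23, 2.18, 2.29 and 3.93 in CTL1 to CTL4. HUA libraries lay above CTL libraries, and XZSW2 was below all of CTL. Ifit3b changed by 1.44 ± 0.35 (SE, edgeR adjusted p = 0.00883) on the log2 scale in HUA against CTL. Of the 50-base words in the Ifit3 transcripts 51.2% also occur in another gene, chiefly Ifit3b, so how reads were shared out between the pair is uncertain.

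Ifit2 was the IFIT gene with the least spread among HUA libraries, at 4.40 to 4.91 in HUA against 1.37 to 2.52 in CTL, and rose with a log2 change of 1.23 ± 0.28 (SE, edgeR adjusted p = 0.00598). XZSW libraries held 1.64 to 4.44 and their change against HUA was -0.74 ± 0.28 (SE, edgeR adjusted p = 0.0905). Ifit1 spread most: HUA2 stood at 5.72 and HUA1 at 0.674, within the CTL range of 0.385 to 0.832. Its log2 change in HUA against CTL was 2.06 ± 0.65 (SE, edgeR adjusted p = 0.0301), a call that was lost without HUA2 or without any of CTL1, CTL2 and CTL3. No IFIT gene was called in XZSW against HUA or against CTL.

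OAS enzymes make a short messenger from ATP that activates the RNA-degrading enzyme RNase L. Of the 4 OAS genes 2 rose in HUA against CTL and 0 were called elsewhere. Oas1a had levels of 2.6, 1.31, 2.28 and 1.71 in XZSW1 to XZSW4, 1.52, 6.02, 3.59 and 3.2 in HUA1 to HUA4, and 1.07, 1.86, 0.649 and 1.4 in CTL1 to CTL4. HUA2, HUA3 and HUA4 lay above all CTL libraries and HUA1 lay among them. The log2 change of Oas1a in HUA against CTL was 1.52 ± 0.41 (SE, edgeR adjusted p = 0.0144); 57.6% of its 50-base words recur in other genes, all in Oas1g, so its level is uncertain. Oasl2, an OAS-like gene, had levels of 3.19, 1.39, 1.18 and 1.4 in XZSW1 to XZSW4, 0.827, 4.66, 1.51 and 1.27 in HUA1 to HUA4, and 0.662, 1.19, 0.406 and 0.706 in CTL1 to CTL4. HUA2 and XZSW1 stood far above the other libraries of their groups, and both groups overlapped CTL. Its log2 change in HUA against CTL was 1.47 ± 0.52 (SE, edgeR adjusted p = 0.0484), and the call was lost without any of XZSW2, XZSW3, XZSW4, HUA2, HUA3, CTL1, CTL3 or CTL4. Oas2 (0.351 to 1.31) and Oas3 (0 to 0.214) were not called.

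ISG15 is a ubiquitin-like protein that is attached to other proteins, and USP18 removes it and also damps signalling at IFNAR2. Isg15, with its row of ISRE cores, had levels of 7.15, 2.12, 1.73 and 2.88 in XZSW1 to XZSW4, 2.93, 14, 5.93 and 8.23 in HUA1 to HUA4, and 0.436, 2.13, 0.96 and 1.25 in CTL1 to CTL4. Every HUA library lay above every CTL library, HUA2 was the highest of all, and XZSW libraries overlapped both groups. The log2 change of Isg15 in HUA against CTL, the largest of any member, was 2.69 ± 0.60 (SE, edgeR adjusted p = 0.0052). In XZSW against HUA it was -1.16 ± 0.56 (SE, edgeR adjusted p = 0.188), and in XZSW against CTL it was 1.53 ± 0.58 (SE, edgeR adjusted p = 0.138). Usp18 had levels of 1.55, 0.68, 0.841 and 0.676 in XZSW1 to XZSW4, 0.433, 3.11, 1.3 and 0.882 in HUA1 to HUA4, and 0.279, 0.672, 0.297 and 0.356 in CTL1 to CTL4. HUA1 lay within the CTL range, and all XZSW libraries lay above CTL, XZSW4 at 0.676 only just above CTL2 at 0.672. Usp18 rose in HUA against CTL, with a log2 change of 1.79 ± 0.53 (SE, edgeR adjusted p = 0.0238), a call lost without HUA2 or without any of CTL1, CTL3 and CTL4.

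Among the virus restriction factors 1 of 4 rose in HUA against CTL. Bst2 encodes tetherin, which holds budding virus particles at the cell surface, and had levels of 8.17, 5.61, 12 and 8.59 in XZSW1 to XZSW4, 9.06, 17.5, 19.5 and 18.9 in HUA1 to HUA4, and 4.72, 6.83, 4.95 and 6.34 in CTL1 to CTL4. HUA libraries all lay above CTL libraries, HUA1 lay below XZSW3, and XZSW2 lay within the CTL range. Bst2 rose in HUA against CTL, with a log2 change of 1.5 ± 0.27 (SE, edgeR adjusted p = 0.00165). It fell in XZSW against HUA, with a log2 change of -0.92 ± 0.27 (SE, edgeR adjusted p = 0.0364), and this call was lost without any of XZSW1, XZSW2, XZSW4, HUA2, HUA3 or HUA4. Rsad2, which encodes the antiviral enzyme viperin, had levels of 3.48, 1.69, 1.93 and 1.51 in XZSW1 to XZSW4, 1.12, 2.47, 1.45 and 1.38 in HUA1 to HUA4, and 1.53, 1.43, 1.47 and 2.22 in CTL1 to CTL4. The 3 groups overlapped, and Rsad2 was the only member with a negative log2 change in HUA against CTL. That change was -0.05 ± 0.30 (SE, edgeR adjusted p = 0.923), and in XZSW against CTL it was 0.37 ± 0.30 (SE, edgeR adjusted p = 0.496). Mx1 and Mx2, dynamin-like GTPases that trap viral nucleocapsids, had levels of 0 to 0.683 and 0.167 to 2.28, with log2 changes of 1.99 ± 0.83 and 1.77 ± 0.65 (SE) in HUA against CTL that did not pass the test.

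Guanylate-binding proteins (GBPs) are interferon-induced GTPases that coat the vacuoles of intracellular bacteria and parasites, and 4 of 7 rose in HUA against CTL. These were Gbp2, Gbp3, Gbp5 and Gbp7, which lie in 1 cluster on chromosome 3, from 142493978 at the start of Gbp5 to 142638008 at the end of Gbp2 (GRCm38). Gbp4 and Gbp9, neighbours on chromosome 5 between 105077630 and 105139586, rose in XZSW against HUA and against CTL, and Gbp6 on the same chromosome was not called. Gbp3 had levels of 4.02, 1.88, 1.79 and 1.71 in XZSW1 to XZSW4, 6.8, 9.71, 6.23 and 6.73 in HUA1 to HUA4, and 1.45, 1.92, 0.883 and 1.56 in CTL1 to CTL4. HUA libraries lay above all others with no overlap, and XZSW libraries overlapped CTL except XZSW1. For HUA against CTL the log2 change of Gbp3 was 2.34 ± 0.31 (SE, edgeR adjusted p = 0.000257). In XZSW against HUA Gbp3 fell, with a log2 change of -1.65 ± 0.30 (SE, edgeR adjusted p = 0.00439), the largest fall of any member.

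Gbp2 had levels of 5.6, 2.54, 2.28 and 3.36 in XZSW1 to XZSW4, 3.6, 7.59, 7.12 and 6.1 in HUA1 to HUA4, and 0.977, 1.62, 1.34 and 1.56 in CTL1 to CTL4. Both XZSW and HUA libraries lay above all CTL libraries, and XZSW1 overlapped HUA. Its log2 change in HUA against CTL was 2.15 ± 0.32 (SE, edgeR adjusted p = 0.000474). In XZSW against CTL it rose by 1.32 ± 0.31 (SE, edgeR adjusted p = 0.0315) on the log2 scale, a call lost without any of XZSW1, XZSW4 or CTL1 to CTL4, and in XZSW against HUA the change was -0.82 ± 0.30 (SE, edgeR adjusted p = 0.0853). Gbp5 and Gbp7 rose in HUA against CTL with log2 changes of 1.39 ± 0.42 and 1.33 ± 0.32 (SE). The Gbp5 call was lost without HUA2 or without any of CTL1, CTL3 and CTL4, whereas Gbp7 remained called under every omission and setting tried.

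Gbp4 and Gbp9 are described because they were the only members to rise in XZSW against HUA, a choice made after their values were seen. Gbp4 had levels of 2.85, 1.27, 1.65 and 1.1 in XZSW1 to XZSW4, 0.483, 0.854, 0.574 and 0.244 in HUA1 to HUA4, and 0.285, 0.616, 0.345 and 0.654 in CTL1 to CTL4. All XZSW libraries lay above all HUA and CTL libraries, which overlapped each other. The log2 change of Gbp4 in XZSW against HUA was 1.67 ± 0.41 (SE, edgeR adjusted p = 0.0165), and in XZSW against CTL it was 1.85 ± 0.41 (SE, edgeR adjusted p = 0.0264). The second call was lost without any of XZSW1, XZSW3 or CTL1 to CTL3, and the first under none of the 12 omissions. Gbp9 had levels of 2.93, 1.66, 1.17 and 1.23 in XZSW1 to XZSW4, 0.791, 1.15, 0.739 and 0.593 in HUA1 to HUA4, and 0.406, 0.758, 0.38 and 0.737 in CTL1 to CTL4. XZSW libraries again lay above the others, XZSW3 at 1.17 just above HUA2 at 1.15. Its log2 change in XZSW against HUA was 1.09 ± 0.34 (SE, edgeR adjusted p = 0.0467), a call lost without any of XZSW1, XZSW2, HUA1, HUA3, HUA4 or CTL1 to CTL4. In XZSW against CTL it was 1.61 ± 0.35 (SE, edgeR adjusted p = 0.0247), a call lost without XZSW1, CTL1, CTL2 or CTL3. Gbp6 held 0.208 to 1.74 and 70.7% of its 50-base words recur in other genes, chiefly the predicted gene Gm43302, so its level is uncertain.

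**Figure D4:**
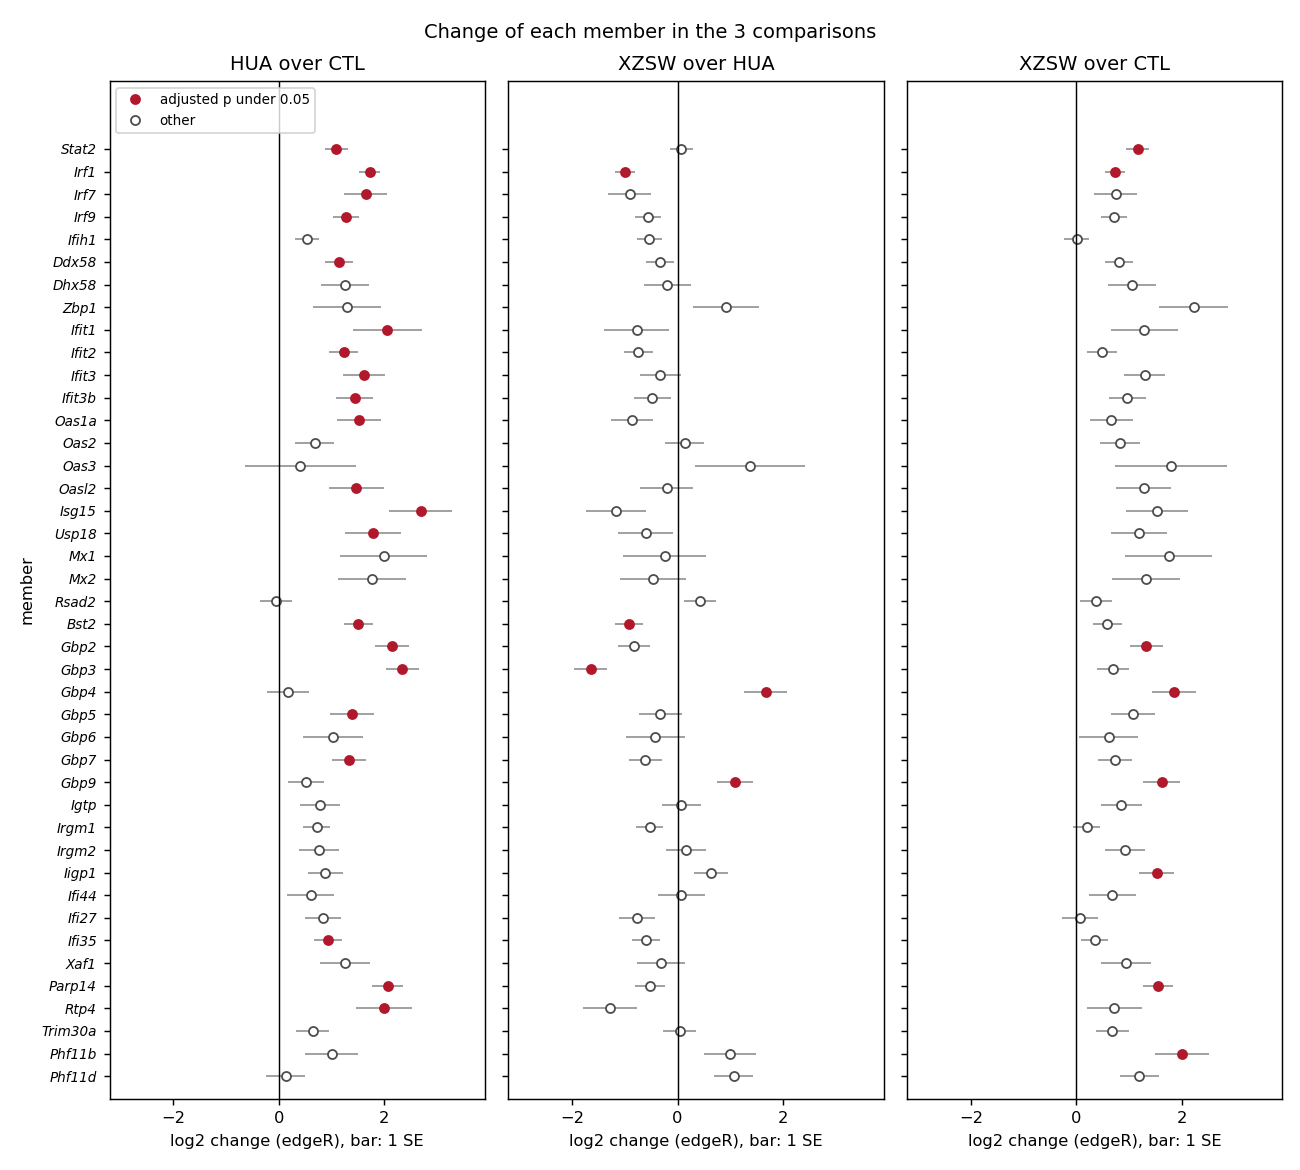
Log2 change of each member with 1 standard error in HUA over CTL, XZSW over HUA and XZSW over CTL (edgeR); filled points have an adjusted p under 0.05. Points lie right of 0 for 41 members in HUA over CTL and for all 42 in XZSW over CTL, and on both sides in XZSW over HUA, where Gbp4 and Gbp9 are filled on the right and Irf1, Bst2 and Gbp3 on the left.

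The immunity-related GTPases act beside the GBPs on the same vacuoles, and 0 of 4 were called in HUA against CTL or in XZSW against HUA. Irgm1, which regulates the other family members, had levels of 8.82, 6.68, 6.29 and 5.69 in XZSW1 to XZSW4, 5.33, 14.4, 10.2 and 9.57 in HUA1 to HUA4, and 6.14, 7.79, 5.03 and 5.03 in CTL1 to CTL4. HUA2, HUA3 and HUA4 lay above all other libraries and HUA1 lay within the CTL range. The change of Irgm1 in HUA against CTL was 0.72 ± 0.26 (SE, edgeR adjusted p = 0.0515). Igtp had levels of 9.76, 4.54, 7.32 and 6.96 in XZSW1 to XZSW4, 2.91, 12.3, 5.35 and 6.59 in HUA1 to HUA4, and 2.73, 5.53, 3.1 and 4.45 in CTL1 to CTL4. The 3 groups overlapped, with HUA2 and XZSW1 highest. Igtp changed by 0.78 ± 0.38 (SE, edgeR adjusted p = 0.149) on the log2 scale in HUA against CTL; it overlaps Irgm2 on chromosome 11 on the same strand, and counts of the pair may have been divided between them. Iigp1 rose in XZSW against CTL, with a log2 change of 1.52 ± 0.33 (SE, edgeR adjusted p = 0.0249). Its level was 0.933 to 1.96 in XZSW, 0.638 to 1.03 in HUA and 0.239 to 0.702 in CTL, so XZSW and CTL did not overlap. The call was lost without XZSW1, XZSW3, CTL1, CTL3 or CTL4.

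Of the 9 remaining members 3 rose in HUA against CTL, 0 were called in XZSW against HUA and 2 rose in XZSW against CTL. Parp14, an ADP-ribosyltransferase, had levels of 2.3, 1.68, 1.31 and 0.962 in XZSW1 to XZSW4, 1.75, 3.02, 2.28 and 1.92 in HUA1 to HUA4, and 0.417, 0.708, 0.371 and 0.643 in CTL1 to CTL4. XZSW and HUA libraries all lay above CTL libraries, and XZSW1 reached into the HUA range. The log2 change of Parp14 in HUA against CTL was 2.07 ± 0.30 (SE, edgeR adjusted p = 0.000399), and in XZSW against CTL it was 1.55 ± 0.29 (SE, edgeR adjusted p = 0.0159). Without CTL3 the second of these was no longer called. Between XZSW and HUA it was -0.52 ± 0.28 (SE, edgeR adjusted p = 0.243). Ifi35, a leucine-zipper protein, had levels of 8.88, 5.84, 8.35 and 8.5 in XZSW1 to XZSW4, 5.85, 13.7, 12 and 16.1 in HUA1 to HUA4, and 5.9, 7.24, 4.9 and 6.79 in CTL1 to CTL4. HUA1 lay within the CTL range and the other HUA libraries above it. Ifi35 rose in HUA against CTL, with a log2 change of 0.94 ± 0.26 (SE, edgeR adjusted p = 0.0175), a call lost without CTL3. On the low GC-slope side, where HUA1 was the only HUA library, that change was -0.08.

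Ifi27, a small hydrophobic mitochondrial and nuclear-envelope protein, was the most abundant member, with levels of 22.5, 21.7, 29.9 and 30.5 in XZSW1 to XZSW4, 20.7, 43.5, 63.9 and 50 in HUA1 to HUA4, and 26.3, 40.5, 13.6 and 18.8 in CTL1 to CTL4. HUA3 was the highest library, and the 3 groups overlapped because CTL2 was high and HUA1 low. The change of Ifi27 in HUA against CTL was 0.84 ± 0.34 (SE, edgeR adjusted p = 0.0861). Rtp4, a chaperone for receptors, rose in HUA against CTL, with a log2 change of 1.99 ± 0.53 (SE, edgeR adjusted p = 0.0139), and HUA2 held 11.6 against 1.73 to 4.42 in the other HUA libraries. Phf11b rose in XZSW against CTL, with a log2 change of 2.0 ± 0.51 (SE, edgeR adjusted p = 0.0427); 47.0% of its 50-base words recur in other genes, so its level is uncertain. The call was lost without any of XZSW1 to XZSW4 or CTL1 to CTL4. Ifi44, Xaf1, Trim30a and Phf11d were not called in any comparison, with positive log2 changes of 0.13 to 1.25 in HUA against CTL.

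The members varied together among libraries of a group. The median over members of log2(scaled FPKM + 0.1), taken against the CTL mean, was 1.36, 0.53, 0.67 and 0.67 in XZSW1 to XZSW4, 0.26, 1.64, 1.06 and 0.94 in HUA1 to HUA4, and -0.24, 0.35, -0.37 and 0.13 in CTL1 to CTL4. HUA2 was the highest HUA library for 37 of the 42 members and HUA1 the lowest for 28. CTL2 was the highest CTL library for 30. Of all 12 libraries HUA2 was highest for 25 members and XZSW1 for 12. HUA1 is also the only HUA library of low GC slope. It lay within the CTL range for 22 members, above all CTL libraries for 18, among them Irf1 and Gbp3, and below them for 2. The matching shares of all tested genes were not worked out, so whether these counts are particular to the members is not known. The median of HUA1 against the CTL mean was 1.12 for the guanylate-binding proteins, 0.93 for the IFIT genes and 0.83 for the signal transducers and transcription factors. For the cytosolic sensors it was 0.20. For the guanylate-binding proteins HUA1 was not the lowest HUA library, and the lowest stood at 0.325. In the other role groups only the lowest HUA library is given here, which need not be HUA1. It stood at -0.068 for immunity-related GTPases, -0.0015 for OAS genes and -0.012 for virus restriction factors. The lowest was at -0.083 for the other interferon-stimulated genes and 0.66 for ISG15 and its protease.

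The change between XZSW and HUA ran in opposite directions on the 2 sides of the GC split, an analysis added after the data were seen, with both sides taken from 1 edgeR fit over all 12 libraries so that they share an estimate of the spread. On the high side, XZSW3 and XZSW4 against HUA2, HUA3 and HUA4, 35 of the 42 members had a negative log2 change, with a median of -0.79. Of these 7 fell and 0 members rose, where 6.57% of all tested genes fell and 5.13% rose. When these 5 libraries were fitted alone 0 members were called, and 0.179% of all tested genes fell and 0.0249% rose. On the low side, XZSW1 and XZSW2 against HUA1, 34 members had a positive one, with a median of 0.71. There 1 member fell (Irf1) and 0 rose, where 2.47% of all tested genes fell and 0.92% rose. When the low-slope libraries were fitted alone, with CTL, 1 member rose (Phf11d) and 1 fell (Irf1), where 4.77% of all tested genes rose and 5.10% fell. HUA1 is a lone library there, in both fits assumed to vary like the rest, so these low-side calls compare XZSW with 1 library. The low-side change exceeded the high-side change for 41 members, with Irf1 as the exception. No single member's difference passed adjustment over all genes by edgeR's quasi-likelihood test (0.0202% of all tested genes were called upward and 0.0455% downward), while 16 of 42 had an unadjusted p under 0.05, against 10.4% of all tested genes. Of the low-side libraries, HUA1 was the lowest HUA library for 28 of the 42 members and XZSW1 the highest XZSW library for 38. Members varied together among libraries, so the member counts given for this split are not independent of each other. They cannot be told apart from the levels of HUA1 and XZSW1 alone. The low-side XZSW and HUA libraries also had the 3 highest slopes on transcript length, so the split is a split by length as well. On the HUA low side the GC slope, the length slope and the 1 library cannot be told apart.

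**Figure D5:**
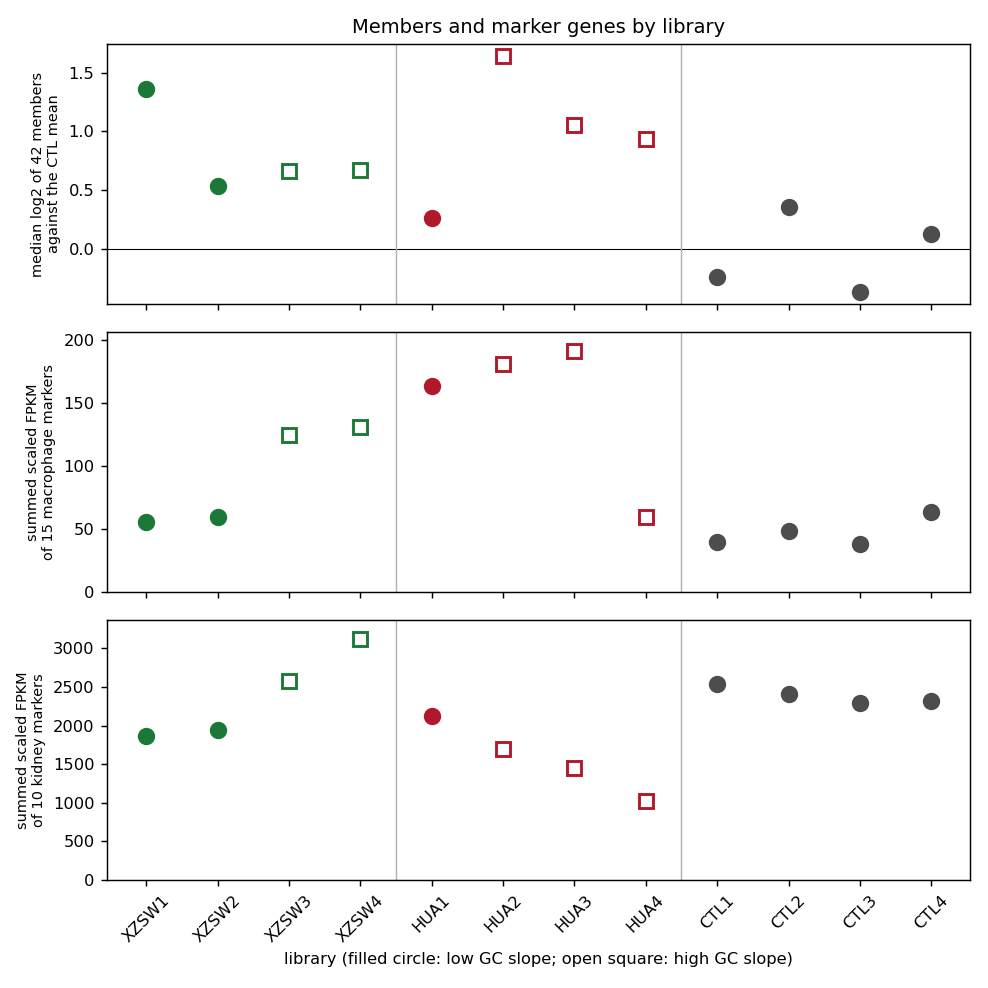
Median log2 of the 42 members against the CTL mean (top), summed scaled FPKM of 15 macrophage markers (middle) and of 10 kidney markers (bottom) in each library; filled circles are libraries of low GC slope and open squares those of high GC slope. The members are highest in HUA2 and XZSW1, whereas the macrophage sum is highest in HUA1, HUA2 and HUA3.

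The changes were set beside the motif content, with no test between the sets. Of the 20 members with an ISRE core 12 rose in HUA against CTL, with a median log2 change of 1.24, and of the 9 matched members without one 6 rose, with a median of 1.25. In XZSW against HUA the medians were -0.41 with the core and -0.56 without it. The 9 members with a GAS core had a median of 1.33 in HUA against CTL.

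The pathway around the members was described with lists of other genes. Of 12 interferon ligands 3 were in the table, and none had enough counts to be tested. Ifng, which encodes interferon gamma, had 8, 0, 17 and 0 counts in XZSW1 to XZSW4, 0 in every HUA library and 4 counts in CTL4 alone of the CTL libraries. Ifnz had 0 to 7 counts per library and Ifnk 4 counts in HUA3 alone; the other 9 ligands were not analysed here. All 3 ligand transcripts were thus near the floor of detection in every group.

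Of 9 receptor chains and kinases 4 rose in HUA against CTL (14.9% of all tested genes) and 3 fell in XZSW against HUA (8.34%). Ifngr1, a chain of the interferon gamma receptor, had levels of 11, 9.9, 11.2 and 12.3 in XZSW1 to XZSW4, 24.8, 18.6, 33.1 and 21.1 in HUA1 to HUA4, and 10.4, 12.4, 9.39 and 12.1 in CTL1 to CTL4. HUA libraries lay above all others, and XZSW and CTL libraries overlapped. Its log2 change was 1.14 ± 0.17 (SE, edgeR adjusted p = 0.000553) in HUA against CTL, and it was -1.14 ± 0.17 (SE, edgeR adjusted p = 0.0016) in XZSW against HUA. Ifngr2 rose and fell likewise, with log2 changes of 1.05 ± 0.21 in HUA against CTL and -1.22 ± 0.21 in XZSW against HUA (SE). Ifnar1 rose in HUA against CTL (log2 change 0.69 ± 0.12) and in XZSW against CTL (0.49 ± 0.12), and so did Ifnlr1, a chain of the interferon lambda receptor (1.33 ± 0.24 and 1.03 ± 0.24). Jak1 fell in XZSW against HUA, with a log2 change of -0.44 ± 0.13.

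Of 18 genes of interferon induction and STAT signalling 7 rose in HUA against CTL and 3 fell in XZSW against HUA. Of all tested genes 14.9% rose in the first comparison and 8.34% fell in the second. Tmem173, which encodes the DNA-sensing adaptor STING, had levels of 2.53, 0.855, 1.61 and 1.77 in XZSW1 to XZSW4, 4.5, 4.04, 5.68 and 2.92 in HUA1 to HUA4, and 0.345, 0.547, 0.539 and 0.456 in CTL1 to CTL4. All 3 groups were apart. Its log2 change was 3.16 ± 0.33 (SE, edgeR adjusted p = 5.94e-05) in HUA against CTL, and -1.34 ± 0.31 (SE, edgeR adjusted p = 0.0119) in XZSW against HUA. Myd88, an adaptor of Toll-like receptors, rose by 1.00 ± 0.16 in HUA against CTL and fell by 0.63 ± 0.15 in XZSW against HUA on the log2 scale. Stat3, the main transducer of interleukin-6 family cytokines, had log2 changes of 1.38 ± 0.26 in HUA against CTL and -1.20 ± 0.25 in XZSW against HUA, both called. Tmem173 also rose in XZSW against CTL, the only gene of this list to do so.

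Of 8 feedback inhibitors 5 rose in HUA against CTL (14.9% of all tested genes) and 3 fell in XZSW against HUA (8.34%). Socs3, an inhibitor of Janus kinase signalling that interleukin-6 family cytokines induce strongly, had levels of 1.12, 1.44, 0.881 and 1.15 in XZSW1 to XZSW4, 61.8, 6.6, 21.1 and 14.8 in HUA1 to HUA4, and 0.469, 0.293, 0.358 and 0.338 in CTL1 to CTL4. HUA libraries lay above all others by a wide margin, with HUA1 highest, and XZSW libraries lay above CTL. Its log2 change was 6.14 ± 0.61 (SE, edgeR adjusted p = 4.07e-05) in HUA against CTL, and it was -4.50 ± 0.56 (SE, edgeR adjusted p = 0.000541) in XZSW against HUA. HUA1, the HUA library in which most members were lowest, had the highest Socs3. Ptpn2, a phosphatase that acts on Janus kinases, rose in HUA against CTL (log2 change 0.68 ± 0.13) and fell in XZSW against HUA (-1.0 ± 0.13). Ptpn11 fell in XZSW against HUA (-0.58 ± 0.18). Socs1, an inhibitor that interferons induce, was near the floor at 0 to 0.422 and rose in HUA against CTL (3.40 ± 0.82).

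Further interferon-stimulated genes were described from a list of 46 outside the 42. Of these 26 were called upward and 0 downward for HUA against CTL, and 20 were not called. Of all tested genes 14.9% rose and 12.8% fell there. The log2 change was negative for 8, down to -0.62 for Cmpk2, and the median was 0.96. In XZSW against HUA 2 rose (Ifi203 and Mndal) and 3 fell (Tor3a, Isg20 and Ifi207), with a median of -0.18. These are 4.35% and 6.52% of the list, below the 7.09% and 8.34% of all tested genes. In XZSW against CTL 7 rose, with a median of 0.94, where 2.72% of all tested genes rose. Tor3a, an ATPase of the endoplasmic reticulum, had levels of 5.47, 3.96, 4.46 and 4.03 in XZSW1 to XZSW4, 6.65, 7.91, 9.81 and 8.57 in HUA1 to HUA4, and 2.66, 2.49, 2.24 and 2.75 in CTL1 to CTL4. HUA lay above XZSW and XZSW above CTL with no overlap. The log2 change of Tor3a in HUA against CTL was 1.70 ± 0.16 (SE, edgeR adjusted p = 2.80e-05), in XZSW against HUA -0.88 ± 0.15 (SE, edgeR adjusted p = 0.0033), and in XZSW against CTL 0.82 ± 0.15 (SE, edgeR adjusted p = 0.0158). Ifi207 had log2 changes of 3.18 ± 0.49 in HUA against CTL and -1.88 ± 0.46 in XZSW against HUA. Isg20, an exonuclease for single-stranded RNA, fell by 1.67 ± 0.33 on the log2 scale in XZSW against HUA. Parp12 rose in HUA against CTL (0.87 ± 0.15), and Tgtp2 (1.51 ± 0.35) and Dtx3l (0.98 ± 0.23) rose in XZSW against CTL.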

How the data were processed

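Strand-specific libraries were built from TRIzol-extracted total RNA, per the labels' protocols. cutadapt 1.9, HISAT2 2.2.1 and the GRCm38 build are listed in the submitters' processing notes. How reads were assigned to genes is not given in the sources used here. Per the file headers, the authors deposited read counts alongside FPKM for every gene in all 12 libraries. Deposited counts were tested with edgeR 4.0.16 (R 4.3.3): filterByExpr by group, TMM factors (0.856 to 1.15), 1 quasi-likelihood F-test fit over 12 libraries, and Benjamini-Hochberg adjustment over 19772 genes. Deposited FPKM values were multiplied by 1 factor per library (0.877 to 1.21) for levels. Standard errors come from the F statistic.

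Alternatives used DESeq2 1.42.0, limma 3.58.1 on log2(FPKM + 1) and log2(FPKM + 0.1), other scalings and filters, GC and length corrections, fits blocked on replicate number, and fits with 1 library omitted. Shared 50-base words were counted in GRCm38 transcripts. Python 3.11.15 with pandas 2.3.3 and matplotlib 3.10.9 drew the figures, and the fits were tested on simulated counts.

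The members and lists were chosen with earlier results of these data known. Levels in every library are given for the 2 members of each role group with the highest mean FPKM and the 2 with the smallest p in each comparison; of other lists, for the called genes with the smallest p.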

Additional observations from a re-analysis of the deposited data

Results flagged for a closer look

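In groups of 4 libraries, a library was marked when its gap to the nearest other library passed Dixon's 95% critical share of the group's range. Of 126 groups (42 members in 3 groups) 12 were marked. Chance marks about 1 in 20 groups of normally distributed values. Scaled FPKM was used here without a log, and that rate was not checked for it. Members are correlated, so the marks are not independent.

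XZSW1 was marked 7 times, each time as the highest XZSW library. Its scaled FPKM was 1.83 for Ifih1, 3.62 for Ifit1, 3.19 for Oasl2, 1.86 for Mx2, 4.02 for Gbp3, 3.92 for Rtp4 and 3.22 for Phf11b. HUA2 was marked as the highest HUA library for Ddx58 at 8.95, Gbp3 at 9.71 and Gbp6 at 1.74. CTL4 was marked as the highest CTL library for Ifit3b at 3.93 and Rsad2 at 2.22.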

How the results depend on the processing

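In HUA against CTL 21 members rose. When the GC split was added to the model 12 rose, with library totals 33, with limma on log2(FPKM + 0.1) 32, and in the low GC-slope libraries 7, with a median of 0.30 in place of 1.25; omissions gave 16 to 27. Gbp2, Gbp3, Gbp7, Irf1, Irf9 and Parp14 were called under every omission and setting run. With the GC split the calls of Irf7, Ifit1, Ifit3, Ifit3b, Oas1a, Oasl2, Usp18, Ifi35 and Rtp4 were lost. Of the called members only Ifi35 reversed, to -0.0841 in the low GC-slope libraries. Dhx58, Gbp4, Ifi27, Ifi44, Igtp, Irgm1, Mx2, Oas2, Oas3, Phf11d, Xaf1 and Zbp1 (none called here) had a negative change under some omission or setting. In XZSW against HUA 2 rose and 3 fell, where 7.09% of all tested genes rose and 8.34% fell. The rises were 1 with library totals, either limma setting, the 8 libraries alone, no filter, the GC split or the replicate block. In these fits 2.70% to 8.49% of all tested genes rose. The high GC-slope libraries fitted alone gave 0 rises (0.0249%). Omissions gave 1 to 3, where 3.48% to 8.35% of all tested genes rose. The falls were 6 with DESeq2 (11.6% of all tested genes fell), library totals (13.7%) and limma on log2(FPKM + 1) (12.1%). They were 5 with limma on log2(FPKM + 0.1) (11.8%) and 0 in the high GC-slope libraries fitted alone (0.179%). Omissions gave 2 to 10, where 4.98% to 10.5% of all tested genes fell. The median was 0.74 in the low GC-slope libraries fitted alone in place of -0.38. In XZSW against CTL 8 rose, where 2.72% of all tested genes rose. With library totals 13 rose (6.18%), and 14 in the low GC-slope libraries (6.81%). With the replicate block 5 rose, alone (2.05%) or with GC and length correction (2.10%). Omissions gave 0 to 10, where 0.405% to 4.32% of all tested genes rose. The causes were not tested. Library totals shifted the median of all genes by 0.33, -0.17 and 0.16 (log2) in the 3 comparisons, in the order above. Whether replicate numbers pair the samples is not known here. To look at this, the group mean of each gene was subtracted from its log2 level in each library. These deviations, not the levels, correlated at -0.0457 to 0.174 over 12 same-numbered pairs. For differently numbered libraries of different groups they correlated at -0.168 to 0.104. Under the block 20 members rose in HUA against CTL, where 14.1% of all tested genes rose. Depth limits the least abundant members, Oas3, Mx1 and Zbp1, which had 0 to 3 counts in some CTL library.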
